A study of Mus musculus with 8 samples.

Results

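The cells described here are muscle stromal cells that carried transcripts of Dpp4, Pi16 and Sema3c together. They were 569 of the 2968 barcodes that passed the filter, out of 3797 deposited, and they are called members below. The filter asked for at least 500 genes, at most 10% mitochondrial unique molecular identifiers (UMIs, which count captured mRNA molecules) and at least 1 Pdgfra UMI. A member had in addition at least 1 UMI each of Dpp4, Pi16 and Sema3c and none of Gdf10 or Cxcl9. The wild type matrix gave 321 members of 1533 filtered barcodes and the knockout matrix 248 of 1435. The remaining 1212 and 1187 filtered barcodes are the other cells that members were set against.

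The study profiled fibro/adipogenic progenitors (FAPs), which were sorted from digested hindlimb muscle as live cells with PDGFRα on their surface. Wild type animals were of strain C57BL/6, and the second group lacked dysferlin, a membrane repair protein whose loss causes a muscular dystrophy. All animals were females aged 8 months, no treatment is named in the labels, and both groups went through the same sort for PDGFRα. The strain of the knockout animals is written in differing ways in the labels, so the group is called the dysferlin knockout here. The labels list 4 samples per group, but each group was deposited as 1 matrix in which no cell is tied to a sample. Each group was therefore 1 library with no replicate, no test was made, and genotype, strain background and library preparation cannot be told apart.

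FAPs are the connective tissue progenitors of skeletal muscle. They secrete matrix and growth factors for muscle stem cells during repair, and in dystrophic muscle they are a source of fibrous tissue and fat. Stromal cells with Dpp4 and Pi16 occur in many organs, often in the fascia and around vessels, and are regarded as an early progenitor state that sits upstream of more specialised fibroblasts. DPP4 is a surface protease that clips chemokines and peptide hormones, PI16 is a secreted or membrane-bound protein of the CAP family, and SEMA3C is a secreted semaphorin read by neuropilin and plexin receptors.

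Members were deeper than the other cells of their own matrix. The median was 11140 UMIs and 3228 genes per member against 8510.5 UMIs and 2755.5 genes per other cell in the wild type matrix. In the knockout matrix it was 15033 UMIs and 3875 genes against 12189 UMIs and 3488 genes. Levels below are given as CPM, the UMIs of a gene in every 1000000 UMIs summed over a set of cells, and the members' sums were 3748521 UMIs for wild type and 3820414 for knockout cells. Intervals are exact 95% intervals for counting error only, since cells of 1 library are not replicates. In the members, the 3 counts that a count of 0 allows correspond to 0.800 CPM (wild type) and 0.785 CPM (knockout). The matrices shared 13 barcode sequences, of which 1 was a member in each matrix. Dysferlin itself was too low to check the labels, with 1 Dysf UMI in the wild type members, none in the knockout members, and 8 and 14 UMIs in the other cells.

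The genes that chose the members are given first, as a description of the rule. Dpp4 (ENSMUSG00000035000, chromosome 2, 62330073 to 62412231, minus strand, mm10) had a median of 2 UMIs per wild type member, ranging from 1 to 16, and a median of 3 per knockout member, ranging from 1 to 17. Pi16 (ENSMUSG00000024011, chromosome 17, 29317680 to 29330593, plus strand) had medians of 13 and 11.5 UMIs, with highest values of 184 and 139. Sema3c (ENSMUSG00000028780, chromosome 5, 17574281 to 17730268, plus strand) had medians of 5 and 6 UMIs, with highest values of 100 and 92. Dpp4 had the fewest UMIs per member of the 3 and was read from a single UMI in 91 wild type and 70 knockout members. The other cells were not free of these transcripts. A Pi16 UMI was present in 52.8% of the wild type other cells, a Sema3c UMI in 35.6% and a Dpp4 UMI in 20.3%. The same shares were 62.4%, 40.4% and 24.1% in the knockout matrix.

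Background from free RNA was read in barcodes of other cell types. Among barcodes that passed on genes and mitochondrial share but had no Pdgfra UMI and at least 3 endothelial or at least 3 immune markers, 2 of 42 in the wild type matrix had a Dpp4 UMI, 3 had Pi16 and none had Sema3c, at a median depth of 3269.5 UMIs. In the knockout matrix 1 of 9 such barcodes had each gene (11.1%; 0.281 to 48.2), at a median of 14519 UMIs. The 5 Dpp4 UMIs there came to 40.9 CPM, close to the 39.9 CPM of the knockout other cells, and the number of these barcodes limits what they show. None of these barcodes met the members' conditions on Dpp4, Pi16 and Sema3c. These barcodes were chosen for lacking Pdgfra, itself a stromal transcript, and the wild type ones were shallower than members (median 11140 UMIs). Their absence from the gate therefore cannot show how often free RNA would give Dpp4, Pi16 and Sema3c together.

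The share of members was lower in the knockout than in the wild type library, and that order depended on the condition on Gdf10 and Cxcl9. Members were 20.9% of the filtered wild type barcodes (Clopper-Pearson interval 18.9 to 23.1) and 17.3% of the knockout barcodes (15.4 to 19.3). After each cell was thinned to 5000 UMIs the shares were 15.3% (166 of 1082 cells) and 11.9% (128 of 1075 cells), with 468 and 265 cells too shallow to be thinned. When cells with Gdf10 or Cxcl9 were allowed in, the shares were 24.3% (22.2 to 26.6) and 24.8% (22.6 to 27.1). The knockout share was then no longer the lower one, and the intervals overlapped. Cxcl9, an interferon-induced chemokine, was seen in 28.8% of the knockout other cells and in 1.82% of the wild type ones. Of the cells with Dpp4, Pi16 and Sema3c, 71 in the knockout and 3 in the wild type matrix were turned away for Cxcl9, and 53 and 49 for Gdf10, with some knockout cells holding both. The plot of shares by rule shows the order of the libraries under each form of the gate.

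**Figure D1:**
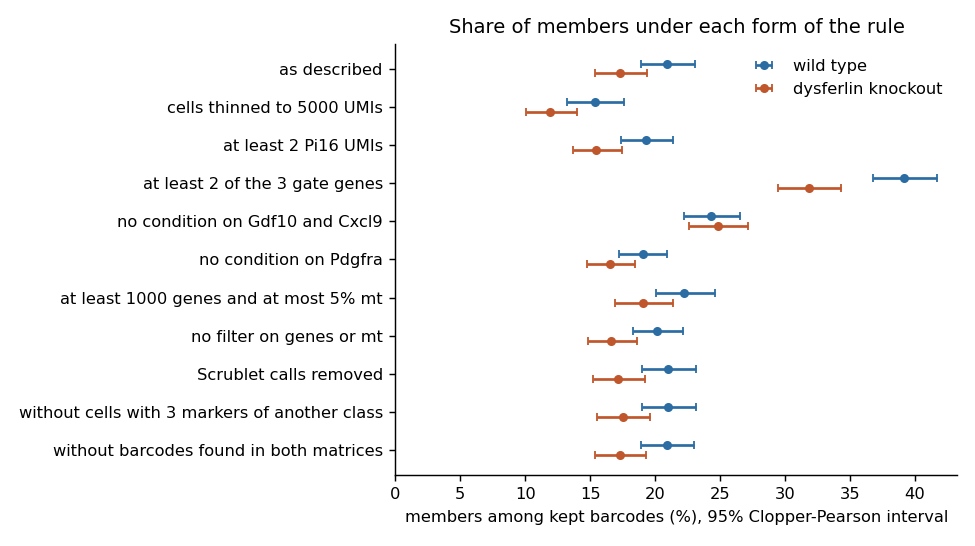
Share of members among the filtered barcodes of each matrix (x axis, %, with exact 95% intervals for counting error) under the rule as described and under its other forms (y axis). The knockout point lies to the left of the wild type point except where the condition on Gdf10 and Cxcl9 is dropped, where the shares are 24.3% and 24.8%.

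Members carried the stromal genes of the sorted population, and markers of other cell types were scarce. Stromal identity genes were shared with the other cells: of 10 described FAP identity genes besides Pdgfra, only Cd34 was higher and only Lum lower in members of both matrices. Summed over 10 immune markers, members had 3.73 CPM in the wild type matrix and 5.24 CPM in the knockout one, and Ptprc, Csf1r and Cd3e were at 0 in both. The other cells had 7.31 and 87.5 CPM of the same list. Over 8 endothelial markers the members had 10.7 and 28.0 CPM, with Emcn at 0 in wild type and Flt1 at 0 in knockout members. The other cells had 30.8 and 22.4 CPM of these. Of the 107 endothelial UMIs in knockout members, 44 were Cldn5 UMIs of 1 cell. Over 8 mural markers the members had 22.4 and 30.6 CPM against 49.9 and 53.0 CPM, and Myh11 was at 0 in members of both matrices. The myogenic list stood at 41.1 and 17.5 CPM in members against 33.6 and 22.1 CPM, with Pax7, Myf5, Myog and Cdh15 at 0 in members. Schwann cell markers summed to 24.5 and 22.2 CPM in members against 59.0 and 36.8 CPM, with Sox10 at 0 in members. Mesothelial and adipocyte markers stayed at or below 1.57 CPM in members. The tenocyte list reached 533 and 459 CPM in members against 623 and 1107 CPM in the other cells, nearly all of it Thbs4. At least 3 markers of 1 other class were seen in 6 wild type and 5 knockout members.

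Other genes of the same progenitor state were higher in members as a group. A gene is called higher or lower here where the CPM differed by at least 1.5-fold, the counting interval left out equality, and the mean CPM was at least 20. Of 26 described progenitor state genes, 23 were higher in members of both matrices and none was lower. Over all 5921 described genes, 3.46% were higher in both and 2.8% lower in both, and 4.86% were higher in members of the wild type matrix and 5.1% in those of the knockout matrix, each on its own. The median log2 ratio of members over other cells on the list was 1.36 for wild type and 1.55 for knockout cells, where the median of all genes was 0.01 and 0.00. All 26 passed in the wild type matrix, and Mfap5, Has1 and Ly6a were the exceptions in the knockout matrix, with log2 ratios of 0.21, 0.18 and 0.53. Wnt2 and Bmp7 were under the level filter. Because the list was drawn up with this cell state in view, its count describes the members and is no independent evidence of their nature.

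Within that group the surface and signalling genes came out clearly. Cd55, a surface inhibitor of complement that is widely used to sort this state, stood at 469 CPM in wild type members and 127 CPM in wild type other cells, and at 499 and 109 CPM in the knockout matrix. Its log2 ratios were 1.89 (1.79 to 1.99) and 2.20 (2.10 to 2.29). At 5000 UMIs per cell, a Cd55 UMI was found in 73.0% of members of either matrix, against 40.2% of wild type and 31.9% of knockout other cells. Dact2, a Wnt and TGF-β pathway adaptor, was at 71.8 CPM in wild type members and 6.65 CPM in the other cells, and at 28.5 and 3.52 CPM in the knockout matrix. Dact2 was the described gene with the highest ratio by the smaller of the 2 matrices, at log2 3.43 and 3.02. Ackr3, a receptor that scavenges CXCL12, was at 871 against 373 CPM in the wild type matrix and 513 against 175 CPM in the knockout one. Ackr2, a scavenger of inflammatory CC chemokines, was at 68.8 against 9.46 CPM and at 25.4 against 3.84 CPM. Both chemokine scavengers were thus higher in members of each matrix, and lower in knockout than in wild type members.

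**Figure D2:**
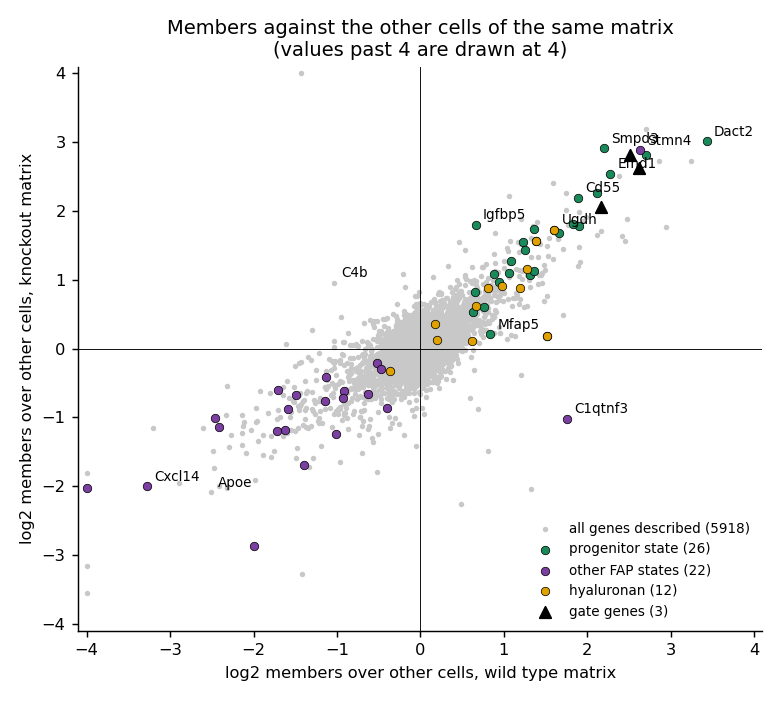
Log2 ratio of CPM in members over other cells in the wild type matrix (x axis) and the knockout matrix (y axis), 1 point per described gene, with 3 gene lists and the gate genes Dpp4, Pi16 and Sema3c in colour. Progenitor state and hyaluronan genes lie mostly to the upper right, genes of other FAP states to the lower left with Stmn4 among the exceptions, and C1qtnf3 is higher in wild type but lower in knockout members.

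Genes chosen by rank alone, with no list, filled out this picture. The 15 genes with the highest ratios in both matrices were Dact2, Ackr2, Cmah, Limch1, Car8, Stmn4, Aif1l, Efhd1, Smpd3, Opcml, Gas7, Edn1, Rorb, Cd55 and Ptprj. Of these, Dact2, Limch1, Efhd1, Smpd3, Opcml and Cd55 stand on the progenitor list, and Stmn4 on the list of other FAP states. The ranking is therefore no evidence separate from the list. Cmah, which makes the sialic acid Neu5Gc, stood at 85.9 against 9.09 CPM in the wild type matrix and at 137 against 20.8 CPM in the knockout one. Smpd3, a sphingomyelinase that makes ceramide, stood at 336 against 73.5 CPM and at 316 against 42.0 CPM. Edn1 encodes the vasoconstrictor peptide endothelin-1 and stood at 110 against 29.5 CPM and at 144 against 36.4 CPM. Efhd1, a mitochondrial calcium-binding protein, stood at 252 against 52.0 CPM and at 157 against 26.9 CPM. At equal depth of 5000 UMIs, an Efhd1 UMI was found in 61.5% of wild type and 41.4% of knockout members, against 16.7% and 9.65% of the other cells. The log2 ratios of these 15 genes ran from 1.89 to 3.43 in the wild type matrix and from 1.85 to 3.19 in the knockout matrix.

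Hyaluronan, a long sugar polymer of loose connective tissue, is built from UDP-sugars at the plasma membrane, and genes of that route were higher in members. Of 12 described genes of the list, 7 were higher in both matrices and none was lower. They covered precursor supply (Ugp2, Ugdh, Gfpt2, Gnpnat1, Uap1), a synthase (Has2) and a hyaluronan-binding proteoglycan (Vcan). Ugdh, Gfpt2 and Has1 stand on the progenitor list too, so the counts of these lists are not separate results. Ugdh makes UDP-glucuronic acid and stood at 586 against 193 CPM in the wild type matrix and at 523 against 158 CPM in the knockout one, with log2 ratios of 1.60 (1.52 to 1.69) and 1.73 (1.64 to 1.82). Gfpt2 controls entry into the hexosamine route and stood at 377 against 144 CPM and at 298 against 101 CPM. Has2 was sparse, at 34.1 against 14.9 CPM and at 28.3 against 15.4 CPM. The synthase Has1 parted between the matrices. Has1 stood at 79.2 CPM in wild type members against 27.6 CPM in the other cells, but at 67.5 against 59.7 CPM in the knockout matrix. The level of Has1 in members was thus close in the 2 libraries, while its level in the other cells was higher in the knockout one. Ugdh and Gfpt2 had like ratios in both.

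Elastic fibre genes were mixed. Of 19 described genes, 5 were higher in members of both matrices (Fbn1, Emilin2, Efemp1, Ltbp1 and Adamtsl4) and 2 were lower (Mfap2 and Mfap4). Fbn1 and Emilin2 stand on the progenitor list too. Fbn1, the core protein of microfibrils, stood at 2223 against 894 CPM in the wild type matrix and at 2402 against 1142 CPM in the knockout one. Efemp1, a fibulin, had log2 ratios of 2.11 and 1.65, and Ltbp1, which tethers latent TGF-β to microfibrils, had 1.07 and 1.56. The microfibril-associated genes Mfap2 and Mfap4 went the other way, at log2 ratios of -0.64 and -0.72 for Mfap2 and of -0.63 and -1.17 for Mfap4. No elastic fibre gene was lower in both matrices when the other cells were of like depth or also without Gdf10 and Cxcl9. Fn1, the fibronectin gene, was the only activated fibroblast gene of 10 described that was higher in members of both matrices, at log2 1.41 and 1.33.

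Genes that mark other FAP states were lower in members. Of 22 described genes, 16 were lower in both matrices and Stmn4 alone was higher, with median log2 ratios of -1.27 for wild type and -0.87 for knockout cells. Cxcl14, a stromal chemokine, stood at 189 CPM in wild type members against 1839 CPM in the other cells, and at 656 against 2626 CPM in the knockout matrix. Its log2 ratios were -3.28 (-3.39 to -3.17) and -2.00 (-2.06 to -1.94). Smoc2, a matricellular calcium-binding protein, stood at 907 against 2541 CPM and at 1404 against 2241 CPM. Col15a1, a basement membrane collagen, had log2 ratios of -1.72 and -1.19, and Hsd11b1, which regenerates active glucocorticoid, had -1.58 and -0.88. Each of these 4 genes was lower in members of both matrices, and each stood nearer to the other cells in the knockout matrix.

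A Dlk1 UMI was found in 1 of 321 wild type members and in 7 of 248 knockout members, against 63 of 1212 and 123 of 1187 other cells. Dlk1 encodes a membrane protein that restrains adipogenesis. C1qtnf3, a secreted relative of adiponectin, was higher in wild type members (27.2 against 8.06 CPM) and lower in knockout members (26.2 against 53.0 CPM), but 1 cell held 45.1% of its wild type member UMIs. Comp, a cartilage and tendon matrix gene, was lower in members by log2 2.00 and 2.86, but 42.0% of its wild type member UMIs and 54.8% of its knockout member UMIs came from a single cell. Vcam1, an adhesion receptor for immune cells, had a UMI at 5000 UMIs per cell in 5.41% of wild type and 16.9% of knockout members, against 11.8% and 27.6% of the other cells.

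**Figure D3:**
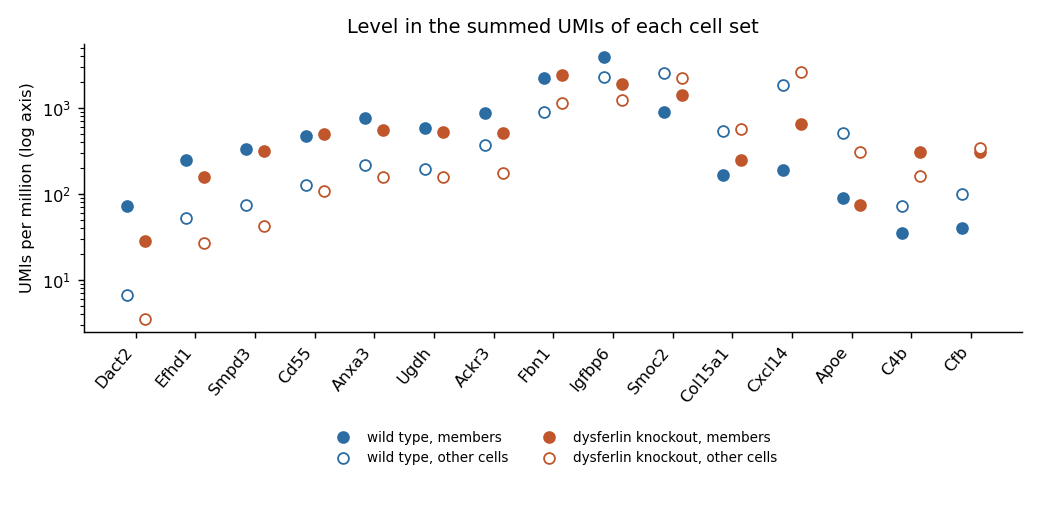
CPM (y axis, log scale) of 15 genes in the summed UMIs of members (filled) and other cells (open) of the wild type and knockout matrices. Progenitor genes from Dact2 to Igfbp6 are higher in members of each matrix, Smoc2 to Apoe lower, and C4b is lower in wild type but higher in knockout members.

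Some fat-related genes were lower in members. Of 11 described adipogenic genes, 5 were lower in both matrices (Apoe, Lpl, Cebpb, G0s2 and Dlk1) and none was higher. Apoe, a lipid carrier, stood at 89.6 against 513 CPM in the wild type matrix and at 73.6 against 312 CPM in the knockout one. Lpl, the lipase that releases fatty acids from lipoproteins, stood at 375 against 1009.8 CPM and at 676 against 1177 CPM. Pparg, the master regulator of adipocyte differentiation, was under the level filter, with 7 UMIs in all wild type members and 9 in all knockout members. Ebf2, a factor of preadipocytes, had log2 ratios of 0.52 and 0.67 and passed as higher in the knockout matrix.

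The lowest ranked genes by rule were Hba-a2, Hbb-bs, Apoe, Ndufa4l2, Dlk1, Cxcl14, Mdk, Comp, Sept4, Spon1, Hba-a1 and Mgp. Mgp, an inhibitor of calcification, stood at 742 against 4142 CPM in the wild type matrix and at 1756 against 5836 CPM in the knockout one. Mdk encodes the growth factor midkine and had log2 ratios of -2.42 and -2.00. The haemoglobin genes Hba-a2, Hbb-bs and Hba-a1 are red cell transcripts, and 99.0%, 99.0% and 98.4% of their UMIs in the wild type other cells came from the leading cell of each gene. In the knockout other cells the leading cell held 13.8%, 13.3% and 9.82%. The wild type ratios of these 3 genes rest on that cell.

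Ligands and receptors of signalling pathways differed gene by gene. Of 23 described BMP and TGF-β genes, Fstl1 and Tgfbr2 were higher in members of both matrices, and Id2 and Id3, which respond to BMP signals, were lower. Tgfbr2, a TGF-β receptor, had a log2 ratio of 0.81 in each matrix, and Id3 had -0.99 and -0.95. Of 12 described Wnt genes, Sfrp1, a secreted Wnt antagonist, was lower in both at log2 -2.14 and -0.96, and none was higher in both. Wnt2, a ligand gene of the progenitor list, was sparse, with 94 UMIs in wild type members and 48 in knockout members. Among factors that act on muscle and vessels, Fgf2 and Vegfd were higher in members of both matrices. Fgf2 stood at 58.4 against 29.1 CPM and at 78.3 against 32.5 CPM. Vegfd, a lymphatic and vascular growth factor, stood at 23.5 against 11.2 CPM and at 68.1 against 33.0 CPM.

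Families of the gate genes did not follow them as a whole. Of 5 described semaphorin and receptor genes besides Sema3c, the receptor Plxna1 was higher in members of both matrices and Sema5a was lower. The receptor Nrp1, which binds SEMA3C, had log2 ratios of -1.11 and -0.54. In the CAP family, Pi15 was higher at log2 0.67 and 0.71, and Crispld2 was lower at -1.95 and -1.05. Cxcl12, a chemokine that DPP4 cleaves, stood at 197 against 351 CPM in the wild type matrix and at 301 against 352 CPM in the knockout one.

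The summed levels of the progenitor list and of the list of other FAP states differed with the number of gate genes seen. With every cell thinned to 5000 UMIs and no Gdf10 or Cxcl9 UMI, the summed level of 28 progenitor state genes in the wild type matrix was 7563 CPM in cells with none of Dpp4, Pi16 and Sema3c. It was 10348 CPM with 1, 14674 with 2 and 21884 with all 3. The knockout matrix gave 7320, 9157, 13453 and 20103 CPM. Both series were higher at each further gate gene. The 23 genes of other FAP states had the opposite order in the wild type matrix, at 16305, 11708, 6866 and 3465 CPM. In the knockout matrix they stood at 14198, 13951, 9703 and 5033 CPM, with the cells of 0 and 1 gate genes close together. At this depth 161 of 296 wild type and 109 of 237 knockout members still met the rule, so cells counted with fewer gate genes include members.

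**Figure D4:**
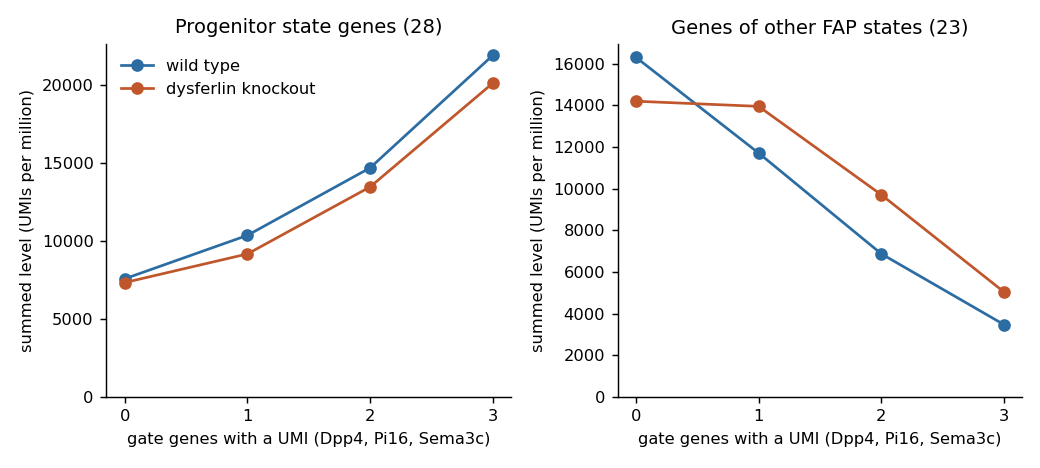
Summed CPM of the progenitor state genes (left) and of genes of other FAP states (right) in cells with 0 to 3 of the gate genes Dpp4, Pi16 and Sema3c seen (x axis), each cell thinned to 5000 UMIs. Progenitor genes climb from 7563 to 21884 CPM in the wild type matrix and from 7320 to 20103 CPM in the knockout one, while the genes of other states have the reverse order.

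The cells on either side of the threshold are given here as a description. Outside it, 280 wild type and 209 knockout cells had 2 of the 3 gate genes and no Gdf10 or Cxcl9 UMI, and their progenitor state genes summed to 12678 and 9887 CPM. Inside it, 190 wild type and 152 knockout members had at least 2 UMIs of each gate gene, at 22642 and 20441 CPM. Just inside, with exactly 1 UMI of each, were 3 cells per matrix, at 16166 and 7869 CPM. The 3 knockout cells were thus below the knockout cells with 2 gate genes. The cells turned away for any Cxcl9 UMI stood at 15252 CPM in the wild type (3 cells) and 14183 CPM in the knockout matrix (71 cells), above the cells with 2 gate genes and below the sum over all members (20440.1 and 18062 CPM).

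Members also carried pairs of genes that mark other FAP states, and how often, beside the other cells, differed by pair and matrix. At 5000 UMIs per cell, Mme and Hsd11b1, markers of interstitial FAPs, were seen together in 7.43% of wild type members (22 of 296; 4.72 to 11.0) and 22.5% of other cells. In the knockout matrix the shares were 9.70% (23 of 237; 6.25 to 14.2) and 15.5%. Stmn4 with Inmt ran the other way in the wild type matrix, at 10.8% of members and 4.37% of other cells, and was rare in the knockout matrix at 1.27% and 0.487%. Cpxm1 with C1qtnf3 was found in 1.69% (0.551 to 3.90) of wild type and 4.64% (2.34 to 8.15) of knockout members, against 1.60% and 10.1% of other cells. Cthrc1 with Postn was found in 1.69% (0.551 to 3.90) and 2.53% (0.935 to 5.43) of members, against 1.81% and 4.87% of other cells. The members' interval took in the other cells' share for Cthrc1 with Postn in both matrices. For Cpxm1 with C1qtnf3 it did so in the wild type matrix only.

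The spread of each gene among members was described next. The index of dispersion, the variance of UMIs over what each cell's depth gives, had a median of 1.14 in wild type and 1.22 in knockout members over 4551 genes. The 10 genes with the highest index in both matrices were Gm42418, Col3a1, Thbs4, Gsn, Mgp, Igfbp5, Malat1, Dcn, Ccl2 and Postn. The index rises with a gene's abundance, and Gsn and Dcn are abundant in these cells. Gm42418 overlaps ribosomal RNA sequence and Malat1 is a nuclear RNA. Col3a1, the fibrillar collagen III gene, had an index of 77.6 in wild type and 92.8 in knockout members, and the richest 10% of members held 48.7% and 33.1% of its UMIs. For Thbs4, a matricellular gene of tendon and muscle attachment, the richest 10% held 92.0% and 79.6%. Postn, which encodes the injury-associated matrix protein periostin, was seen in 17.8% of wild type members and 65.7% of knockout members. Ccl2, a monocyte chemokine, was seen in only 8 wild type and 21 knockout members, and 1 cell held 57.1% and 39.9% of its UMIs.

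Few members were dividing by their transcripts. At least 3 of Mki67, Top2a, Cenpf, Ccnb1, Cdk1 and Birc5 were seen in 0 of 321 wild type members, which allows a share of up to 0.935% by the limit of 3 counts, and in 2 of 248 knockout members (0.806%; 0.0978 to 2.88). Those 2 cells held 98.5% of the members' UMIs of these genes in the knockout matrix. Among the other cells, 1 of 1212 wild type and 20 of 1187 knockout cells met the same criterion, in a library that was also deeper.

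Knockout members were then set beside wild type members, as 1 library beside another. Of 5918 described genes, 442 (7.47%) were higher in knockout members and 227 (3.84%) lower, with a median log2 ratio over all genes of 0.06. Centred on that median, 355 were higher and 291 lower, so the balance of directions rests on the scaling. In the other cells of the same matrices 5.41% of 5931 genes were higher and 3.81% lower. With each cell thinned to 5000 UMIs and members called again, 485 genes were higher in knockout members and 294 lower. The share of described genes called at that depth is not given here. List counts at that depth below therefore have no share over all genes to be read against. Complement, interferon, Wnt antagonist and fibrillar collagen genes were among those higher in knockout members. Genes of the glucocorticoid response and immediate early genes were among those lower.

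Most progenitor state genes did not reach the size criterion between the libraries, and those that did were mainly lower in knockout members. Of 26 described, 1 was higher in knockout members and 7 were lower, with a median log2 ratio of -0.31 in members and -0.42 in the other cells. Members were also called again in cells thinned to 5000 UMIs, which gave 166 wild type and 128 knockout cells. Of 27 genes described there, 1 was higher and 4 were lower. Igfbp6, an IGF-binding protein, stood at 3921 CPM in wild type and 1893 CPM in knockout members, a log2 ratio of -1.05 (-1.09 to -1.01), and at -0.90 in the other cells. Dact2 had -1.33, and the other lower genes were Efhd1, Pcolce2, Ackr3, Uchl1 and Procr, from -0.63 to -0.76. Igfbp5, another IGF-binding protein, was the higher one, at 910 and 1644 CPM and a log2 ratio of 0.85 (0.79 to 0.91). It did not have that direction in the other cells, where its log2 ratio was -0.29. Igfbp5 UMIs were uneven among members, and the richest 10% of members held 64.6% (wild type) and 59.3% (knockout) of them. The interval covers counting error only and leaves out this spread between cells. When cells with Gdf10 or Cxcl9 were allowed in, none of 26 progenitor state genes was higher in knockout members and 9 were lower. The call of Igfbp5 as higher thus depended on that condition. Smpd3, Cd248 and Cd55 had log2 ratios of -0.09, -0.01 and 0.09.

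Genes of other FAP states were higher in knockout members more often than lower. Of 20 such genes, 8 were higher (Mme, Cxcl14, Smoc2, Podn, Hmcn2, Vcam1, Cpxm1 and Apod) and 3 lower (Cyp26b1, Stmn4 and Inmt), with a median of 0.40. In the other cells 3 of 22 were higher and 6 were lower, and the median was -0.01. Cxcl14 stood at 189 CPM in wild type and 656 CPM in knockout members, log2 1.79 (1.67 to 1.92), and at log2 0.51 in the other cells. Apod, a lipid-binding lipocalin, stood at 356 and 842 CPM, log2 1.24, against -0.03 in the other cells. Inmt, a methyltransferase gene, was lower in both sets of cells, while Stmn4, a stathmin gene, was under the level filter in the other cells (22.6 and 3.97 CPM). Stmn4 stood at 140 and 29.3 CPM in members, log2 -2.25 (-2.56 to -1.96), and Inmt at 230 and 40.3 CPM, log2 -2.51 (-2.77 to -2.26). Members were read from more UMIs per cell in the knockout library. With members called again at 5000 UMIs per cell, 8 of 17 described genes of this list were higher and 2 lower.

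Complement genes were higher in knockout members. Complement is a cascade of plasma proteins that tags cells and debris, and stromal cells make several of its components. Of 11 described genes, 6 were higher, among them C1s1, C2, C3, C4b and Cfb, and none was lower, with a median of 0.68 in members and 0.45 in the other cells. C4b, a component of the classical pathway, stood at 35.2 CPM in wild type members, 311 in knockout members, 72.0 in wild type other cells and 160 in knockout other cells. Its log2 ratio was 3.14 (2.88 to 3.41) in members and 1.15 in the other cells. It was thus lower in members than in other cells of the wild type matrix and higher in those of the knockout matrix. At 5000 UMIs per cell, a C4b UMI was found in 7.09% of wild type and 43.5% of knockout members, against 11.0% and 27.1% of the other cells. Cfb, a protease of the alternative pathway, stood at 40.0 and 308 CPM in members, log2 2.94 (2.70 to 3.20). In the other cells Cfb stood at 99.1 and 344 CPM, log2 1.80. At 5000 UMIs per cell, Cfb was found in 14.9% and 64.1% of members and in 26.4% and 65.0% of the other cells. C3, the central component, stood at 1808 and 2891 CPM in members, log2 0.68.

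Interferon response genes were higher in knockout members and in the other knockout cells. Of 19 described, 12 were higher in members and none lower, with a median of 0.90, against 15 of 19 and a median of 1.35 in the other cells. The members' rule left out cells with Cxcl9, itself an interferon-induced gene, which bears on this comparison. When the other cells were also limited to those without Gdf10 and Cxcl9, their median was 0.84. Isg15, a ubiquitin-like antiviral protein, stood at 19.7 and 76.2 CPM in members, log2 1.95 (1.58 to 2.34). Of the class I antigen presentation genes, 5 of 11 were higher and none lower, and B2m, the light chain of class I molecules, stood at 431 and 885 CPM. Ly6a and Ly6c1, surface genes of the progenitor list that interferon also induces, had log2 ratios of 0.35 and 0.54.

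Secreted Wnt modulators and matrix genes were higher as well. Of 13 described Wnt genes, 7 were higher (Sfrp1, Sfrp2, Sfrp4, Dkk2, Fzd1, Fzd4 and Lrp6) and Wnt10b was lower, with a median of 0.60 in members and 0.34 in the other cells. With members called again at 5000 UMIs per cell, 4 of 14 were higher and 2 lower. Sfrp1 stood at 26.7 and 190 CPM in members, log2 2.83 (2.53 to 3.15), and at 118 and 369 CPM in the other cells. Of 10 described activated fibroblast genes, 6 were higher (Postn, Fn1, Col1a1, Col1a2, Col3a1 and Sparc) and Tnc was lower, while 10 of 11 were higher in the other cells. Col3a1 stood at 4638 and 10443 CPM in members, log2 1.17, and Fn1 at 1977 and 3939.6 CPM, log2 1.00. Tnc, a matrix gene of injured tissue, stood at 38.9 and 11.3 CPM in members, but it was seen in 3.43% of wild type and 6.85% of knockout members and 1 cell held 29.5% of the wild type UMIs. In the members called again at 5000 UMIs per cell, 8 of 9 described genes of this list were higher and none was lower.

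Ranked by size, the 12 genes with the highest knockout over wild type ratio in members were Ccl21a, Bc1, Mmp3, Serpina3n, C4b, Cfb, Sfrp1, Sned1, Plac8, Steap4, Lgmn and Fbln7. For Ccl21a (ENSMUSG00000094686), a lymphatic chemokine, 99.3% of the knockout members' UMIs came from 1 cell, so its value does not describe the members. Mmp3, a matrix protease, stood at 30.9 and 289 CPM, log2 3.22 (2.95 to 3.51), and was seen in 9.97% of wild type and 56.5% of knockout members. Serpina3n, a secreted inhibitor of granzyme B and other proteases, stood at 22.9 and 213 CPM, log2 3.22 (2.89 to 3.55). Lgmn encodes the lysosomal protease legumain and stood at 22.7 and 89.3 CPM. Mmp3, Serpina3n and Lgmn were higher in the knockout other cells too, at log2 2.43, 2.53 and 2.32.

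The 12 lowest were Inmt, Gm9780, Stmn4, Tsc22d3, Zbtb16, Rpl10, Cdkn1a, Ddit4, Bmp2, Hspb1, Arl4a and Arl4d. Tsc22d3, Zbtb16, Cdkn1a and Ddit4 stand on the list of glucocorticoid-induced genes. On that list 8 of 14 described genes were lower in knockout members and none higher, with a median of -0.72 in members and -1.01 in the other cells. Tsc22d3, whose leucine zipper protein dampens inflammatory signalling, stood at 501 and 124 CPM, log2 -2.02 (-2.17 to -1.87), and Zbtb16 at 471 and 120 CPM, log2 -1.98 (-2.13 to -1.83). Of 20 described immediate early genes, 10 were lower and none higher, with medians of -0.60 and -0.79. In members called again at 5000 UMIs per cell, 5 of the 20 were lower and 2 higher. The medians were then -0.25 in members and -0.86 in the other cells. Immediate early genes encode transcription factors and feedback regulators that cells switch on within minutes of a stimulus. Rpl10 has near-identical copies in the genome, so its values of 2138 CPM in wild type and 566 CPM in knockout members are uncertain.

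The knockout over wild type log2 ratio of members was also set against that of the other cells. By rule, the differences of the log2 ratios were highest for Ccl21a, C4b, Steap4, Apod, Cxcl14 and Cp, and lowest for Ccl2, Timp1, Iigp1, Has1, Col8a1 and Ptx3. For C4b the difference was 1.99, for Steap4, a metalloreductase, 1.36, and for Cxcl14 1.28. For Has1 it was -1.34 and for Col8a1, a short-chain collagen, -1.32. A Col8a1 UMI was seen in 31.2% of wild type and 47.6% of knockout members, and 1 cell held 17.0% of the wild type members' UMIs. Ccl2 stood at 64.0 and 68.8 CPM in members but at 25.5 and 282 CPM in the other cells, a difference of -3.36 that rests on the few members with a UMI. In Timp1, a metalloproteinase inhibitor with a difference of -2.29, 61.9% of the wild type members' UMIs came from 1 cell. Iigp1, an interferon-inducible GTPase, differed by -1.56, and by -0.76 when the other cells were also without Gdf10 and Cxcl9. With members called again at 5000 UMIs per cell, the differences of Ccl2 and Ptx3 were 0.00 and 0.11, so their direction was not kept.

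**Figure D5:**
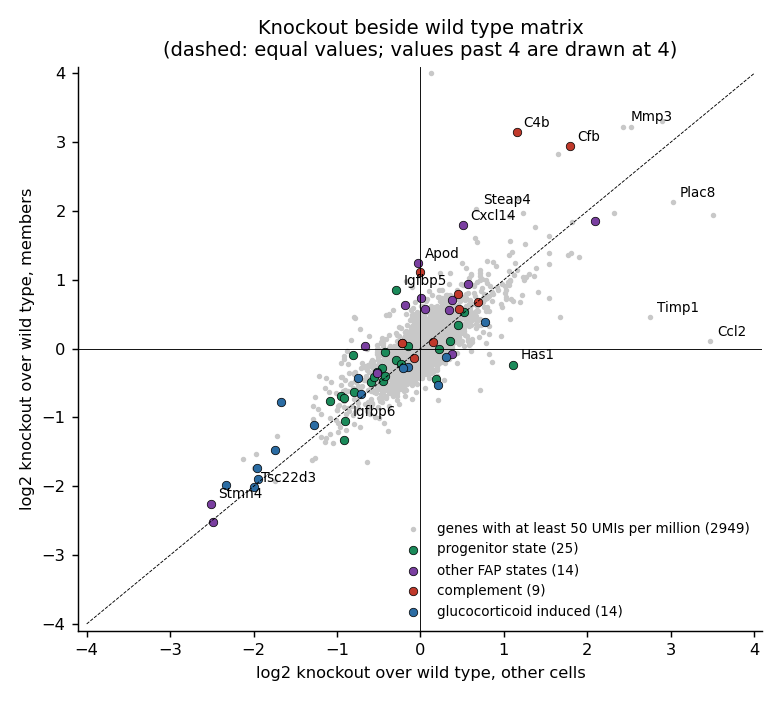
Log2 ratio of knockout over wild type CPM in the other cells (x axis) and in members (y axis) for 2949 genes with at least 50 CPM, with 4 gene lists in colour. Glucocorticoid-induced genes lie mostly to the lower left (of 14, 8 lower in members, and 9 lower and 1 higher in the other cells), C4b and Cfb lie above the dashed line of equal values, and Ccl2 and Timp1 below it.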

How the data were processed

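The authors deposited raw UMI counts per gene and barcode for 31053 genes, in 1 matrix per group (10x Genomics 3′ kit, version 3). The submitters' processing notes name Cell Ranger 3.0.0 and Seurat with the genome build mm10, and the software version per the file headers is 3.0.2. The role of Seurat and the calling of cells are not stated. The matrices held 2073 barcodes with 17642513 UMIs (wild type) and 1724 with 21476948 (knockout).

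UMIs were summed over members and over other cells of each matrix and divided by the set's total (CPM). Ratios have exact conditional binomial 95% intervals and shares exact Clopper-Pearson ones, for counting error only. A gene was described where its CPM averaged at least 20 over the sums compared. Thinning drew 5000 UMIs per cell without replacement, and shallower cells were left out. For members' shares, list counts and differences at that depth, members were called again on the thinned counts (166 wild type and 128 knockout cells). Shares of cells with a UMI of a gene or pair used the members called before thinning (296 and 237 cells). Doublets were not removed in the main values. The sort gated on pulse width per the labels' protocols, but that step comes before cells enter droplets and does not remove doublets formed there. Scrublet (scanpy 1.11.5, score above 0.25) marked 1 wild type and 4 knockout members. The ratio and thinning code was tested on simulated data. Coordinates come from GENCODE on the same build. Python 3.11.15, numpy 2.4.6 and scipy 1.17.1 were used.

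Named genes are the gate genes, the 15 highest and 12 lowest by the weaker ratio of the 2 matrices (at a mean of at least 20 CPM), the 12 highest and lowest in knockout over wild type members and the 6 highest and lowest differences (both at a mean of at least 50 CPM), the 10 most dispersed genes with at least 100 UMIs in the members of each matrix, and genes of the lists. The members and all lists were chosen with earlier results of these data known.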

Additional observations from a re-analysis of the deposited data

How the results depend on the processing

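With 1 matrix per group, no sample could be left out in turn. No paired analysis was possible because the matrices pool the 4 numbered samples of each group and no cell carries a number. The members' share was 15.3% (wild type) and 11.9% (knockout) at 5000 UMIs per cell, 39.2% and 31.8% with at least 2 of the 3 gate genes, and 24.3% and 24.8% with no condition on Gdf10 and Cxcl9. Genes higher and lower in members of both matrices, 205 and 166 as described, were 126 and 91 with at least 2 gate genes, 81 and 61 at 2-fold, and 304 and 362 with a mean of at least 5 CPM. Knockout over wild type members gave 442 and 227 genes as described, 129 and 56 at 2-fold, and 931 and 409 at 5 CPM. A filter of 5 CPM describes more genes than one of 20 CPM. The counts at 5 CPM are given without the share called, so they cannot be compared with the others.

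Of 3935 recomputed values of named genes, 10 were counted as reversed in direction. A further 789 were counted as moved from their main value without a reversal, and 3136 as the same. A ratio was counted as reversed only where the gene had been called higher or lower in the main values. Changes of sign in genes without a call are therefore not among the 10. The reversed values were as follows. The difference between members and other cells came to 0.00142 for Ccl2 and 0.11 for Ptx3 with members called again at 5000 UMIs. In the knockout matrix without the condition on Gdf10 and Cxcl9, the log2 ratio of members over other cells was 1.84 for Hba-a2, 1.83 for Hbb-bs and 1.27 for Hba-a1, and under a filter of 1000 genes and 5% mitochondrial UMIs it was 0.12 for Hba-a1. In the wild type matrix without cells that carry 3 markers of another class it was 0.58 for Hba-a2, 0.10 for Hbb-bs and 0.16 for Hba-a1, and with other cells of like depth 0.29 for Hba-a2. The cause of these changes was not tested. The alternatives without cells of other classes, without shared barcodes, and with other cells that also lack Gdf10 and Cxcl9 were chosen after seeing the data. Depth limits genes under about 20 CPM, and the barcodes of a library are not replicates.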
